A study of Mus musculus with 6 samples.

Results

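The genes of the cell division cycle and of DNA replication were examined in primary mouse hepatocytes that had been made to express the nuclear form of CREBH. A list of 53 genes was set out by name, and each was read from the array feature whose annotation carried that 1 gene symbol alone, taking the feature with the highest mean where a gene had several. This gave 46 measured genes of 18820 on the array. Each was assigned here to a single phase, 10 to G1, 15 to S phase and 21 to G2 and mitosis (G2/M). The S set includes the genes of origin licensing (Cdc6, Cdt1 and Mcm2 to Mcm7), which could also be placed in G1. The remaining 7 genes (Ccne2, Tyms, Ccnb1, Kif20a, Nusap1, Foxm1 and Ube2c) had no feature of their own, and all of these except Ccnb1 lay on features that also carried another gene's symbol. Hepatocytes were isolated by perfusion and digestion from the livers of wildtype male C57BL/6J mice aged 8 to 10 weeks and plated in 60 mm dishes. Both groups received an adenovirus at 100 viral particles per cell. It encoded green fluorescent protein in the control group (Ad-GFP) and the N-terminal, nuclear fragment of CREBH in the other (Ad-nuclear CREBH, which the labels also name Ad-CREBH3). RNA was taken 24 h later from 3 dishes per group, with 1 array per dish. No group without virus was part of the comparison, and the CREBH fragment was supplied already cleaved and in excess, so its release from the membrane was bypassed. Nothing in the labels says that the dishes came from separate animals, so each p-value reflects only how much dishes varied.

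Progress through the cell cycle is driven by cyclins and the cyclin-dependent kinases (CDKs) they activate. In G1, D-type cyclins with Cdk4 and Cdk6 phosphorylate the retinoblastoma protein, which frees the E2F factors to switch on the genes of S phase. The origins of replication are licensed by loading of the MCM helicase and are fired in S phase, and the genes of G2 and mitosis are switched on later by B-Myb, FoxM1 and the MuvB complex. Adult hepatocytes in the liver are mostly quiescent and can re-enter the cycle after loss of liver tissue, and plated hepatocytes leave quiescence for G1. CREBH, encoded by Creb3l3, is a liver transcription factor of the CREB/ATF family that is anchored in the endoplasmic reticulum until it is cleaved.

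Expression is given on the log2 scale throughout, as levels per dish and as differences of group means (log2 fold change, Ad-nuclear CREBH minus Ad-GFP) with their SE from limma, for 3 dishes per group. A gene is said to have risen or fallen where its Benjamini-Hochberg adjusted p over all 18820 genes was under 0.05. Creb3l3 itself, whose transcript from the virus cannot be told apart from that of the mouse gene, was at 8.49, 8.02 and 8.21 with Ad-GFP and at 9.97, 10.46 and 10.59 with Ad-nuclear CREBH (log2 fold change 2.10, SE 0.19, adjusted p = 8.98e-05). Of all genes, 19.2% rose and 18.2% fell, and the median log2 fold change was 0.039. The hepatocyte marker Alb had means of 13.28 with Ad-GFP and 13.27 with Ad-nuclear CREBH, near the highest gene level of each array (13.46 to 13.56). Of 10 hepatocyte markers 1 rose (Apoa1, 0.74) and 3 fell (Asgr1, -1.51, Cps1, -1.21, and Ahsg, -0.75). Replicate 1 stood somewhat apart from the other arrays of its group in both groups. Its mean correlation to them was 0.986 for Ad-GFP (0.991 and 0.991 for the others) and 0.991 for Ad-nuclear CREBH (0.994 and 0.994). The weights that limma estimated for each array were 0.26 and 0.41 for these replicates and 1.62 to 1.87 for the rest.

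The genes are described by phase. Of the 21 G2/M genes 16 fell and 0 rose, with a median log2 fold change of -1.50. Of the 15 S-phase genes 3 rose and 7 fell, around a median of -0.14. Of the 10 G1 genes 3 rose and 1 fell, around a median of 0.11. Against 19.2% of all genes risen and 18.2% fallen, the share that fell was 76.2% in G2/M, 46.7% in S and 10% in G1, and the share that rose was 0%, 20% and 30%. The largest fall was that of Ccna2 at -3.24 and the largest rise that of Cdc25a at 1.73. In bulk RNA a smaller number of cycling cells and less RNA per cycling cell cannot be told apart.

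**Figure D1:**
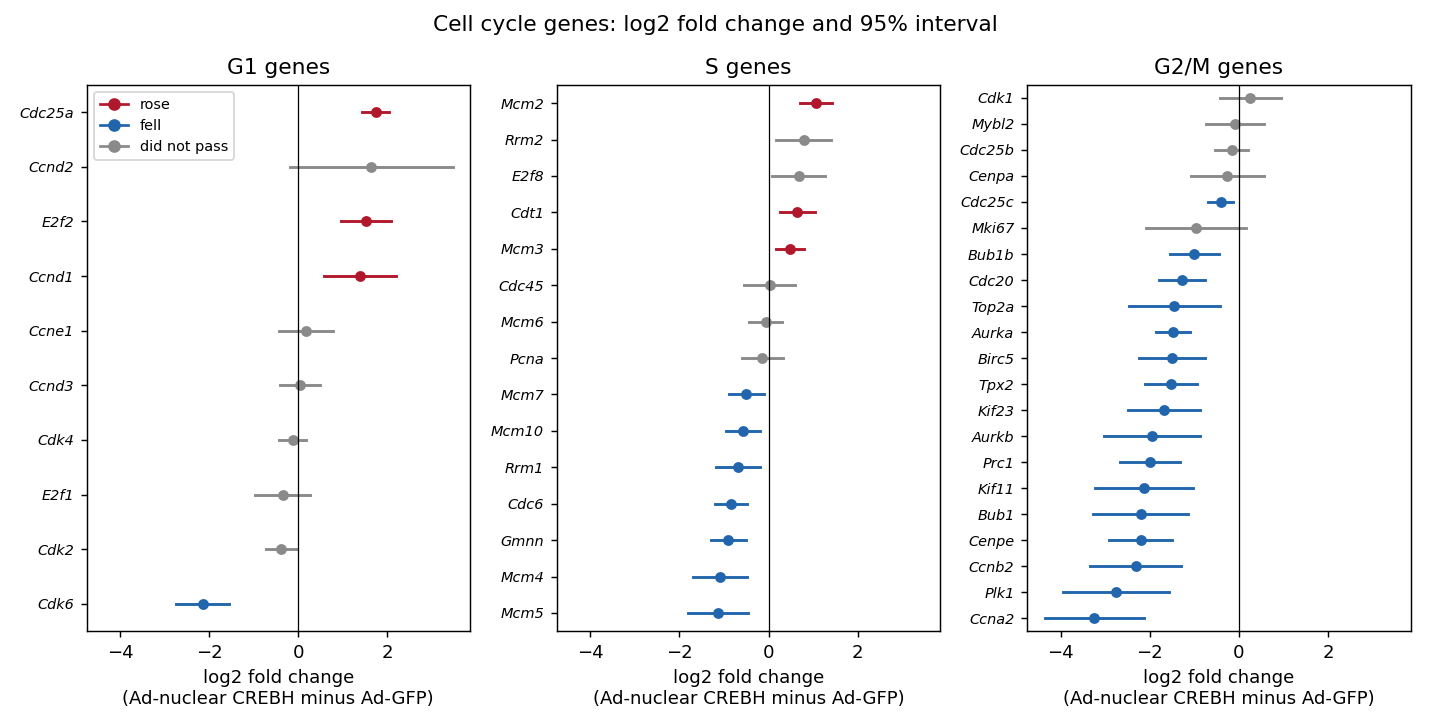
Log2 fold change (Ad-nuclear CREBH minus Ad-GFP, x axis) of the 46 measured genes in 3 panels by phase, with points for the estimates, lines for the 95% confidence intervals from limma, red for genes that rose, blue for genes that fell and grey for genes that did not pass. The G2/M panel lies almost wholly to the left of 0 (20 of 21 genes), whereas the S and G1 panels spread to both sides.

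The promoters of these genes carry letters that are often named as phase elements, and they are shown here because genes of 1 phase moved together while others with the same letters did not. A window from 250 bases before to 50 bases after the start of the gene was taken from RefSeq (GRCm38.p6) for the 42 of 53 genes that had one. Ccna2 was among the 11 without. In the 6 windows shown, written 5′ to 3′ on the gene's strand, capitals mark matches to the cell cycle genes homology region (CHR, TTTGAA or TTCGAA), to the CCAAT box (CCAAT) and to an E2F site (TTTCCCGC, TTTGGCGC, TTTCGCGC or TTTGCCGC), each searched on both strands so that a reverse CCAAT box reads ATTGG.
Plk1 (chr7:122159185-122159484, + strand, fell): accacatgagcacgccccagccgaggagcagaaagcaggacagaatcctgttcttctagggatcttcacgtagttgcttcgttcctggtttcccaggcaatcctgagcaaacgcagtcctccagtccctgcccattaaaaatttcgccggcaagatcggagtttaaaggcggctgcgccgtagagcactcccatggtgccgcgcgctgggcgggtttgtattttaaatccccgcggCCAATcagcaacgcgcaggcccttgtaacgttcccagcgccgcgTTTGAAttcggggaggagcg
Ccnb2 (chr9:70421505-70421804, - strand, fell): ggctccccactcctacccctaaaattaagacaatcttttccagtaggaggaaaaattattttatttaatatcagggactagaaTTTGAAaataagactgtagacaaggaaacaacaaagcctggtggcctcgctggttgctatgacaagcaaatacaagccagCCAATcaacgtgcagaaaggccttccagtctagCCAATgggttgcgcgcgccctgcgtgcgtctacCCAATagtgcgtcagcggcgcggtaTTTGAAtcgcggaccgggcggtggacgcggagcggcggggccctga
Cdk1 (chr10:69352863-69353162, - strand, did not pass): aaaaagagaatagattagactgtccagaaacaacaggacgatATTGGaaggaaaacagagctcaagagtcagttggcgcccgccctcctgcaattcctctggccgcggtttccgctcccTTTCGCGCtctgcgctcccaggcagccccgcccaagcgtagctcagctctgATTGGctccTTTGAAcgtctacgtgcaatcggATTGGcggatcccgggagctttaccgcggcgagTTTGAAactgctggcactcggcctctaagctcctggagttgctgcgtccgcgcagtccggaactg
Mcm2 (chr6:88898731-88899030, - strand, rose): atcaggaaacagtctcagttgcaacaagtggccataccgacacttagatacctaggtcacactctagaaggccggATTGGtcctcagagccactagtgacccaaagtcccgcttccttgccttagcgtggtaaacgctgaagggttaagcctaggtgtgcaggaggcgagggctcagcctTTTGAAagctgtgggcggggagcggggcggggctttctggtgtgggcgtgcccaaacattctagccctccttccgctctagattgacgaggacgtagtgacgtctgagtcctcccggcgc
Mcm5 (chr8:75109259-75109558, + strand, fell): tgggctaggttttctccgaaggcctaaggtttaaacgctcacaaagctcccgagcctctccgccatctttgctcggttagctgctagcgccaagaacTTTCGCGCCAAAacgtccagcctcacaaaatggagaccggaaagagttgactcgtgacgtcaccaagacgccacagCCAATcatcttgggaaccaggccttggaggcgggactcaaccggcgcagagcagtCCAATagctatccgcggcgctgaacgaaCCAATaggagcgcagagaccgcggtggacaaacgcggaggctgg
Cdc25a (chr9:109875329-109875628, + strand, rose): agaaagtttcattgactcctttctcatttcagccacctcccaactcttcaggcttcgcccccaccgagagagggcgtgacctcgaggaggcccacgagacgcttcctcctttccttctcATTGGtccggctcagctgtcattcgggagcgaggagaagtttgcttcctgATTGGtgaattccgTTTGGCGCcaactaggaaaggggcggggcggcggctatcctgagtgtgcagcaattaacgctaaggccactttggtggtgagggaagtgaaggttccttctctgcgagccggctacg

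Plk1 and Ccnb2, which fell, have a CHR that begins at bases 31 and 5 counted from the start as base 1, with a CCAAT box 14 and 21 bases before the start. Cdk1, which did not pass the test, has a CHR beginning 15 bases before the start and a reverse CCAAT box 48 bases before it. Among G2/M genes with a window, a CHR was found in 15 of 20 (75%), against 21.7% of the 27025 genes with a window, and a CCAAT box in 17 of 20 (85%) against 41.1%. The CHR was in 10 of the 12 G2/M genes with a window that fell and in 4 of the 5 that did not pass. An E2F site was found in 6 of 14 S-phase genes (42.9%) and 3 of 8 G1 genes (37.5%), but in 1 of 20 G2/M genes, Cdk1, against 2.6% of all genes. In the Mcm5 window a pair of E2F matches on opposite strands overlap (TTTCGCGC and GCGCCAAA). The E2F letters were in 3 of the 5 S-phase genes with a window that fell and in 2 of the 3 that rose. The element that CREB-family factors bind, TGACGTCA, was in the windows of Mcm5 and Cenpe, which both fell, and in 2.03% of all genes. Its shorter form TGACGT, which every match of the full element contains, was in 3 of 8 G1 genes, 3 of 14 S genes and 1 of 20 G2/M genes, against 8.37% of all genes. The G1 genes with TGACGT were Ccnd3, Cdk2 and E2f1, none of which passed the test. Those of S were Mcm2, which rose, and Mcm5 and Mcm10, which fell. These matches describe the letters of the windows and do not show binding. Where a gene had more than 1 window, a match in any of them was counted.

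The cyclins and kinases of G2/M included the largest changes. Ccna2, which encodes the cyclin of late S phase and G2, was at 6.71, 8.31 and 8.63 with Ad-GFP and 4.08, 4.93 and 4.91 with Ad-nuclear CREBH. Expression in the dishes of the 2 groups did not overlap, and the fall was 9.46-fold (log2 fold change -3.24, SE 0.48, adjusted p = 0.0011). Ccnb2, a B-type cyclin that partners Cdk1 at mitosis, was at 6.69, 8.29 and 8.54 with Ad-GFP and 5.80, 5.36 and 5.40 with Ad-nuclear CREBH, again without overlap, and fell 4.98-fold (log2 fold change -2.32, SE 0.44, adjusted p = 0.00388). Cdk1, the kinase that both cyclins activate, did not pass the test. It was at 5.98, 6.70 and 7.003 with Ad-GFP and 7.27, 6.51 and 6.66 with Ad-nuclear CREBH, with overlapping groups (log2 fold change 0.25, SE 0.30, adjusted p = 0.564, 95% interval -0.43 to 0.94). The difference between the log2 fold changes of Cdk1 and Ccna2 was 3.50, and within each dish the log2 level of Cdk1 minus that of Ccna2 was higher in all 3 Ad-nuclear CREBH dishes than in all 3 Ad-GFP dishes. This pair was chosen after its values were seen. Of the CDK-activating phosphatases of mitotic entry, Cdc25c fell slightly (log2 fold change -0.41, SE 0.12, adjusted p = 0.0303) at low levels in both groups (means 3.69 and 3.28), but not with each array centred on its median (-0.27, adjusted p = 0.123), and Cdc25b did not pass (-0.16, adjusted p = 0.478).

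Plk1 and both aurora kinases fell, as did Birc5 and Tpx2, partners of the aurora kinases. Plk1, the polo-like kinase needed for centrosome maturation and spindle assembly, was at 5.58, 7.31 and 7.85 with Ad-GFP and 3.88, 4.18 and 4.41 with Ad-nuclear CREBH. Every Ad-nuclear CREBH dish lay below every Ad-GFP dish, by 6.77-fold on average (log2 fold change -2.76, SE 0.51, adjusted p = 0.00349). Aurkb, the kinase of the chromosomal passenger complex, was at 5.08, 6.79 and 7.01 with Ad-GFP and 4.01, 4.54 and 4.50 with Ad-nuclear CREBH, without overlap although Ad-GFP replicate 1 was closer to the CREBH dishes than to the other controls (log2 fold change -1.94, SE 0.47, adjusted p = 0.0117). Birc5 (survivin), a subunit of the same complex, also fell (log2 fold change -1.50, SE 0.32, adjusted p = 0.00691). Aurka, the kinase of the spindle poles, had the tightest groups of the G2/M kinases, with Ad-GFP dishes between 6.03 and 6.54 and Ad-nuclear CREBH dishes between 4.79 and 4.81 (log2 fold change -1.48, SE 0.17, adjusted p = 0.000265). Its activator Tpx2 fell by a similar amount (log2 fold change -1.52, SE 0.25, adjusted p = 0.00182).

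Genes of the spindle checkpoint, the kinetochore and the spindle motors fell as well, apart from Cenpa. Bub1, a checkpoint kinase, was at 3.83, 5.27 and 5.88 with Ad-GFP and 2.76, 2.49 and 3.13 with Ad-nuclear CREBH. The groups did not overlap, with Ad-GFP replicate 1 again the control nearest to the CREBH dishes (log2 fold change -2.20, SE 0.46, adjusted p = 0.00627). Bub1b, which encodes the checkpoint protein BubR1, fell less (log2 fold change -0.997, SE 0.24, adjusted p = 0.0118). Cdc20, the activator of the anaphase-promoting complex that the checkpoint restrains, fell 2.43-fold (log2 fold change -1.28, SE 0.22, adjusted p = 0.0024). Cenpe, a kinetochore kinesin, was at 5.23, 5.99 and 6.57 with Ad-GFP and 3.69, 3.66 and 3.83 with Ad-nuclear CREBH. All 3 Ad-nuclear CREBH dishes were at least 1 log2 unit below the lowest control (log2 fold change -2.21, SE 0.30, adjusted p = 0.000737). Cenpa, the histone H3 variant of the centromere, did not pass (log2 fold change -0.26, SE 0.35, adjusted p = 0.621). It was at 4.78, 5.90 and 6.25 with Ad-GFP and 5.14, 5.62 and 5.39 with Ad-nuclear CREBH. Ad-GFP replicate 1 thus lay below all CREBH dishes and the other controls above them. Kif11, the kinesin that separates the spindle poles, was at 5.23, 6.88 and 7.32 with Ad-GFP and 4.12, 4.39 and 4.51 with Ad-nuclear CREBH. Ad-GFP replicate 1 was the lowest control by more than 1 log2 unit, yet still above every CREBH dish (log2 fold change -2.14, SE 0.48, adjusted p = 0.00833). Prc1, which bundles the microtubules of the central spindle, was at 6.09, 6.80 and 7.14 with Ad-GFP and 4.72, 5.01 and 4.33 with Ad-nuclear CREBH, without overlap (log2 fold change -1.99, SE 0.29, adjusted p = 0.000972). Kif23, a kinesin of the same structure, fell as well (log2 fold change -1.68, SE 0.35, adjusted p = 0.00614).

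**Figure D2:**
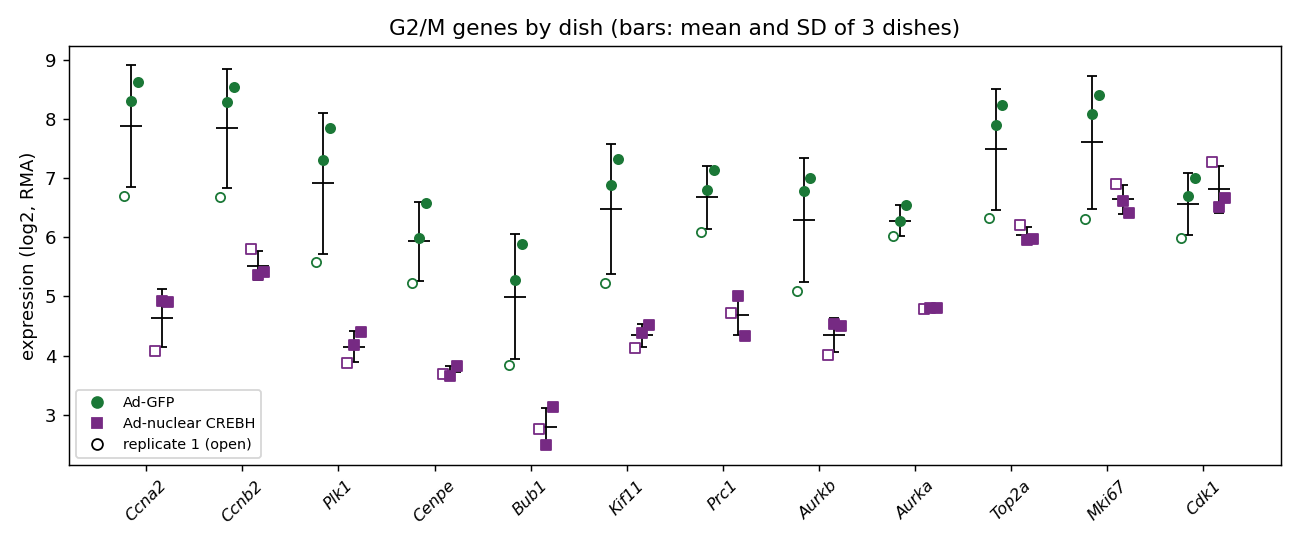
Log2 expression (y axis) of 12 G2/M genes (x axis) in each dish, with circles for Ad-GFP, squares for Ad-nuclear CREBH, open symbols for replicate 1 and bars for the mean and SD of 3 dishes. Control replicate 1 is the lowest control for every gene shown, and the groups overlap only for Mki67 and Cdk1.

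The proliferation marker Mki67 and the B-Myb gene Mybl2 were the brightest G2/M genes besides Cdk1 that did not pass. Mki67, which encodes the Ki-67 protein that coats mitotic chromosomes, was at 6.32, 8.09 and 8.41 with Ad-GFP and 6.90, 6.61 and 6.42 with Ad-nuclear CREBH. The CREBH dishes lay close together, whereas Ad-GFP replicate 1 lay below all of them and the other controls above (log2 fold change -0.96, SE 0.49, adjusted p = 0.169). Without Ad-GFP replicate 1 Mki67 fell by 1.61 (adjusted p = 0.000325). Mybl2, a transcription factor that acts with MuvB on G2/M genes, was at 5.69, 6.57 and 6.72 with Ad-GFP and 6.52, 6.07 and 6.14 with Ad-nuclear CREBH, with overlapping groups (log2 fold change -0.08, SE 0.28, adjusted p = 0.851). Top2a, the topoisomerase that untangles sister chromatids, fell 2.73-fold (log2 fold change -1.45, SE 0.44, adjusted p = 0.0324), but Ad-GFP replicate 1 was only 0.12 above the highest CREBH dish, and the call was lost when any 1 array other than Ad-GFP replicate 1 was left out.

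Taking the G2/M genes as a group, 16 of 21 had every Ad-nuclear CREBH dish below every Ad-GFP dish, and these were the 16 that fell. Over all genes 23.1% lay below in this way, and 26.2% lay above, which no G2/M gene did. The spread among controls was wide, since Ad-GFP replicate 1 was the lowest control for 21 of 21 G2/M genes, against 45.4% of all genes, and the median SD of the controls was 0.72 for the G2/M genes against 0.16 for all genes. Relative to the Ad-GFP mean, the median G2/M gene stood at -0.70, 0.22 and 0.62 in the controls and at -1.55, -1.50 and -1.52 with CREBH. Of the 16 genes that fell, 13 had a CREBH mean below the median level of all genes (5.24). At low levels RMA values can approach those of unexpressed genes and a fold change may be understated, but no background level was measured here. With 1 array left out, 13 to 18 G2/M genes fell and 0 rose, the lowest count without Ad-nuclear CREBH replicate 2 or 3. Bub1b lost its call in that pair of fits, and Cdc25c and Top2a lost theirs on leaving out any array except Ad-GFP replicate 1. Without replicate 1 of both groups, a fit added after the values were seen, 19 fell.

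Markers of other liver cell types were read from the same dishes. The summed linear level of the 10 macrophage markers was 2645 to 3623 in the Ad-GFP dishes and 1188 to 2600 in the Ad-nuclear CREBH dishes. Most of each sum came from the brightest marker, Cd68, a lysosomal protein gene (means 11.49 and 10.35, adjusted p = 0.0215). Of these markers 1 rose (Csf1r, 0.61) and 2 fell (Cd68, -1.13, and Cd5l, -0.64), against 19.2% and 18.2% of all genes, and 6 of 10 were below the median level of all genes (5.24) in both groups. Marco, expressed by resident macrophages, had means of 5.93 and 5.54. Sums of the endothelial markers were 305 to 402 and 323 to 412, those of stellate cells and fibroblasts 155 to 199 and 127 to 291, those of cholangiocytes 238 to 570 and 404 to 608, and those of lymphocytes 37.6 to 45.5 and 39.3 to 45.2, in the Ad-GFP and Ad-nuclear CREBH dishes respectively. Of 8 endothelial markers Oit3 rose (0.56), and of 8 stellate cell and fibroblast markers Reln fell (-1.90). Of 4 cholangiocyte markers Epcam rose (1.74) and Krt19 fell (-1.06), with Sox9 the brightest, and 0 of 4 lymphocyte markers passed, against the same 19.2% and 18.2%. Col1a1 did not pass (1.63, adjusted p = 0.0619) and was at 5.02, 7.30 and 7.51 in the Ad-nuclear CREBH dishes. The part of other cell types in the fall of the G2/M genes was not tested.

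The S-phase genes split within their own complexes. The MCM hexamer, the replicative helicase, is built from Mcm2 to Mcm7, and of these Mcm2 and Mcm3 rose while Mcm4, Mcm5 and Mcm7 fell and Mcm6 did not pass, although Mcm3 was not called after quantile normalization or cyclic loess, nor Mcm7 under cyclic loess or with each array centred on its median. Mcm2 was at 8.58, 8.63 and 8.78 with Ad-GFP and 10.05, 9.60 and 9.54 with Ad-nuclear CREBH. The groups did not overlap, and the rise was 2.1-fold (log2 fold change 1.07, SE 0.16, adjusted p = 0.000959). Mcm5 was at 8.11, 7.89 and 8.08 with Ad-GFP and 7.62, 6.62 and 6.43 with Ad-nuclear CREBH. Replicate 1 was the highest CREBH dish by about 1 log2 unit, and all 3 lay below the controls (log2 fold change -1.14, SE 0.29, adjusted p = 0.0161). Mcm4 was at 9.55, 8.99 and 8.96 with Ad-GFP and 8.64, 7.90 and 7.72 with Ad-nuclear CREBH, without overlap (log2 fold change -1.08, SE 0.26, adjusted p = 0.0123). Mcm3 and Mcm7 changed less, by 0.48 (adjusted p = 0.0247) and -0.50 (adjusted p = 0.0474). Mcm6 was at 10.002, 9.77 and 9.74 with Ad-GFP and 10.12, 9.59 and 9.60 with Ad-nuclear CREBH, with every control inside the range of the CREBH dishes (log2 fold change -0.07, SE 0.16, adjusted p = 0.793). The difference between the log2 fold changes of Mcm2 and Mcm5 was 2.21, and the log2 level of Mcm2 minus that of Mcm5 was higher in every Ad-nuclear CREBH dish than in every Ad-GFP dish. The pair was chosen after its values were seen.

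The factors that load the helicase also went both ways. Cdt1, a loading factor, was at 7.86, 7.40 and 7.61 with Ad-GFP and 8.49, 8.16 and 8.15 with Ad-nuclear CREBH, without overlap, and rose 1.56-fold (log2 fold change 0.64, SE 0.17, adjusted p = 0.0172). Geminin (Gmnn), the inhibitor of Cdt1, was at 4.53, 4.61 and 4.84 with Ad-GFP and 4.01, 3.74 and 3.52 with Ad-nuclear CREBH. Its dishes did not overlap and its level fell 1.87-fold (log2 fold change -0.90, SE 0.17, adjusted p = 0.00337). Cdc6, which loads MCM together with Cdt1, was at 5.59, 5.47 and 5.59 with Ad-GFP and 4.94, 4.64 and 4.56 with Ad-nuclear CREBH, with controls within 0.12 of one another and all CREBH dishes below them (log2 fold change -0.84, SE 0.16, adjusted p = 0.0034). The difference between the log2 fold changes of Cdt1 and Cdc6 was 1.48, a pair likewise chosen after its values were seen. Mcm10, needed to activate the loaded helicase, was at 6.59, 6.64 and 6.88 with Ad-GFP and 6.37, 5.99 and 6.02 with Ad-nuclear CREBH, without overlap (log2 fold change -0.58, SE 0.17, adjusted p = 0.0263), but was not called with each array centred on its median (adjusted p = 0.0677), after quantile normalization (0.0771) or under cyclic loess (0.0857). Cdc45, a subunit of the active helicase, did not pass (log2 fold change 0.02, SE 0.25, adjusted p = 0.95).

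**Figure D3:**
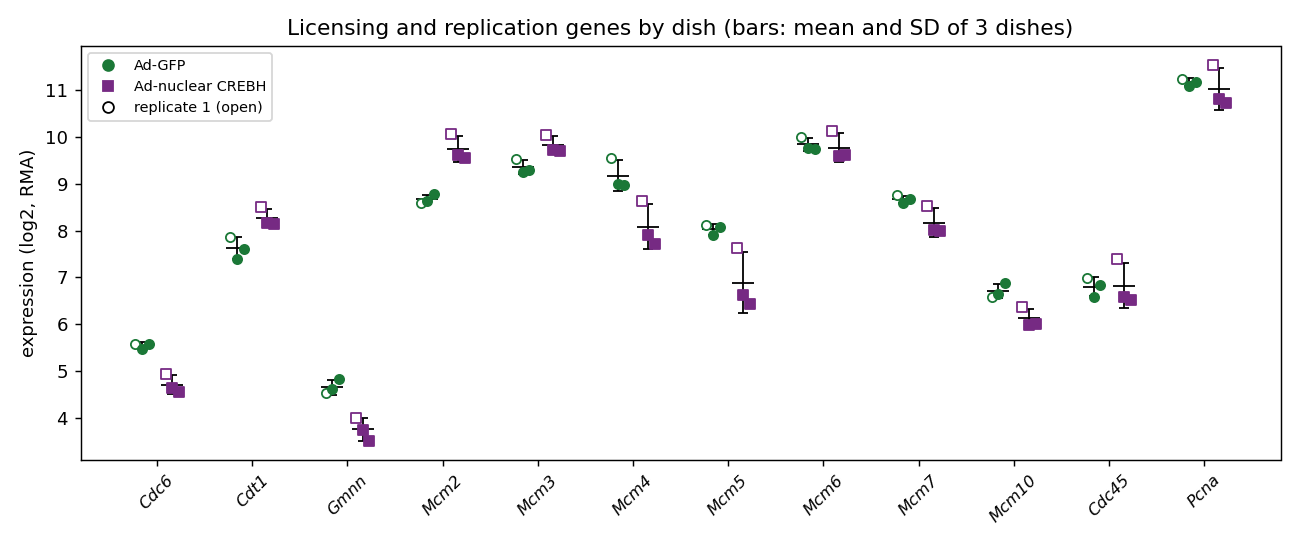
Log2 expression (y axis) of 12 genes of origin licensing and DNA replication (x axis) in each dish, with circles for Ad-GFP, squares for Ad-nuclear CREBH, open symbols for replicate 1 and bars for the mean and SD of 3 dishes. Cdt1, Mcm2 and Mcm3 are higher with CREBH and Cdc6, Gmnn, Mcm4, Mcm5, Mcm7 and Mcm10 lower, and replicate 1 is the highest CREBH dish for every gene shown.

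At the replication fork and in nucleotide supply, Pcna, the sliding clamp, was at 11.24, 11.08 and 11.17 with Ad-GFP and 11.53, 10.80 and 10.72 with Ad-nuclear CREBH. Ad-nuclear CREBH replicate 1 was above all controls and the other two CREBH dishes below them (log2 fold change -0.14, SE 0.20, adjusted p = 0.628, 95% interval -0.60 to 0.31). Without Ad-nuclear CREBH replicate 1 Pcna fell by 0.40 (adjusted p = 0.011). Ribonucleotide reductase makes deoxynucleotides from a large subunit, Rrm1, and a small subunit, Rrm2. Rrm1 was at 9.06, 9.39 and 9.58 with Ad-GFP and 9.11, 8.50 and 8.39 with Ad-nuclear CREBH, the highest CREBH dish lying just above the lowest control, and fell (log2 fold change -0.68, SE 0.21, adjusted p = 0.0385), though not with each array centred on its median (adjusted p = 0.066). Rrm2 was at 7.97, 8.51 and 9.02 with Ad-GFP and 9.62, 9.22 and 9.02 with Ad-nuclear CREBH. Its groups were separated by only 0.001, and it did not pass (log2 fold change 0.79, SE 0.27, adjusted p = 0.0503). Rrm2 passed as a rise with each array centred on its median (adjusted p = 0.0137) and without Ad-GFP replicate 3 (0.014). Among genes at or above the median level it passed too (0.0394). It also passed under an intensity-based moderated statistic (adjusted p = 0.0491), written out here after the kind that the methods name. The study itself used such a statistic at p under 0.001. E2f8, an atypical E2F that represses transcription, did not pass either (log2 fold change 0.68, SE 0.26, adjusted p = 0.073), although its groups did not overlap. In all, 5 S-phase genes lay wholly above the controls and 6 wholly below, where 26.2% and 23.1% of all genes did.

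Within the Ad-nuclear CREBH group replicate 1 was the highest dish for 15 of 15 S-phase genes, against 36.5% of all genes. Relative to the Ad-GFP mean, the median S-phase gene stood at 0.08, -0.08 and 0.04 in the controls and at 0.28, -0.36 and -0.44 with CREBH. With each array centred on its median, 5 S-phase genes rose and 4 fell (4814 and 2852 of all genes). The counts also moved with single arrays, to 1 risen without Ad-GFP replicate 2, and to 4 fallen without Ad-GFP replicate 2 or 3, 2 without Ad-nuclear CREBH replicate 2 and 3 without Ad-nuclear CREBH replicate 3. The calls of Mcm2, Cdc6 and Gmnn held in every fit with 1 array left out, whereas Mcm5 and Mcm4 lost theirs without Ad-nuclear CREBH replicate 2 (adjusted p = 0.0663 and 0.0523), Mcm5 also without Ad-nuclear CREBH replicate 3 (0.059), and Cdt1 without Ad-GFP replicate 2 or 3 (0.0664 and 0.0552). Mcm3, Mcm7, Mcm10 and Rrm1 each lost the call in at least 4 of the 6 fits, among them those without Ad-GFP replicate 2 or 3 and without Ad-nuclear CREBH replicate 2.

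**Figure D4:**
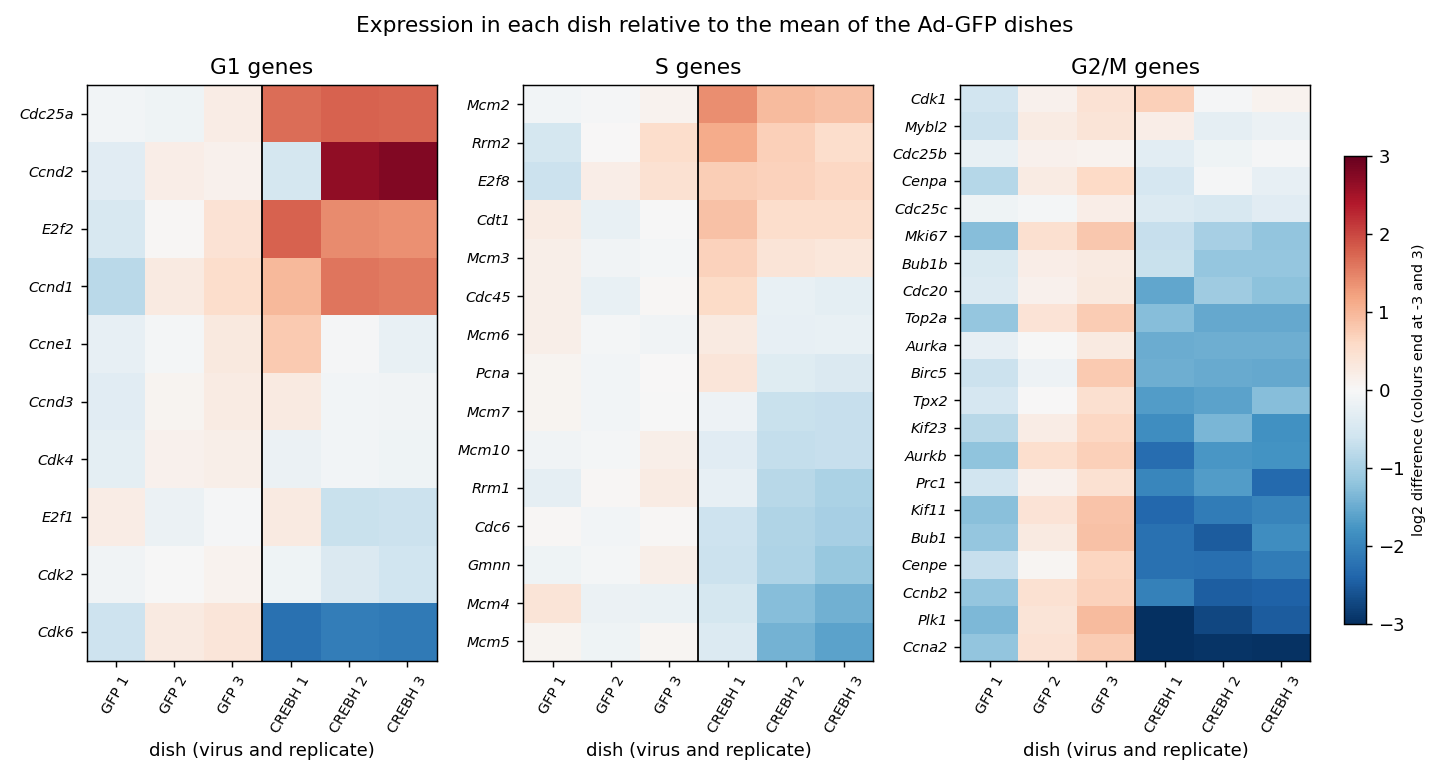
Log2 level of each gene (rows, ordered by fold change within each phase) in each dish (columns, named by virus and replicate) minus the mean of the 3 Ad-GFP dishes, with red above and blue below that mean and colours ending at -3 and 3. The G2/M panel is blue in all CREBH columns except for the genes at the top, and the first CREBH column of the S panel is redder than the other CREBH columns in every row.

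Among the G1 genes 1 D-type cyclin, Ccnd1, rose and 1 of its kinases, Cdk6, fell. Ccnd1, the D-type cyclin that rises when hepatocytes leave quiescence, was at 5.52, 6.60 and 6.87 with Ad-GFP and 7.30, 7.95 and 7.90 with Ad-nuclear CREBH. The groups did not overlap, and the rise was 2.61-fold (log2 fold change 1.39, SE 0.35, adjusted p = 0.0146). Its call was lost without Ad-nuclear CREBH replicate 2 or 3 (adjusted p = 0.0594 and 0.0563). Ccnd2 was at 6.06, 6.60 and 6.52 with Ad-GFP and 5.86, 9.06 and 9.18 with Ad-nuclear CREBH. Replicate 1 lay below every control and the others more than 2 log2 units above, so the estimate was imprecise (log2 fold change 1.64, SE 0.79, adjusted p = 0.149, 95% interval -0.18 to 3.46). Ccnd3 did not pass (0.03, adjusted p = 0.925). Cdk6, a kinase partner of the D-type cyclins, was at 7.58, 8.47 and 8.57 with Ad-GFP and 5.97, 6.13 and 6.08 with Ad-nuclear CREBH. All CREBH dishes lay within 0.16 of one another and more than 1 log2 unit below the lowest control, a 4.43-fold fall (log2 fold change -2.15, SE 0.26, adjusted p = 0.000345). Cdk4, the other kinase partner, was at 10.66, 11.09 and 11.13 with Ad-GFP and 10.79, 10.88 and 10.84 with Ad-nuclear CREBH, with overlapping groups (log2 fold change -0.13, SE 0.13, adjusted p = 0.506). Without Ad-GFP replicate 1 it fell by 0.28 (adjusted p = 0.0163).

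The genes of the passage from G1 to S were led by a phosphatase. Cdc25a, which removes the inhibitory phosphates from Cdk2, was at 7.53, 7.50 and 7.83 with Ad-GFP and 9.29, 9.40 and 9.37 with Ad-nuclear CREBH. The groups were far apart with little spread in either, and the rise was 3.32-fold (log2 fold change 1.73, SE 0.13, adjusted p = 4.42e-05). Cdk2 itself was at 9.39, 9.50 and 9.61 with Ad-GFP and 9.37, 9.07 and 8.90 with Ad-nuclear CREBH, with the groups separated by 0.02 (log2 fold change -0.39, SE 0.14, adjusted p = 0.069). Cdk2 passed as a fall with array weights (adjusted p = 0.00215), after quantile normalization (0.0193) or cyclic loess (0.0363) and among genes at or above the median level (0.047). It also passed in 2 of the fits with 1 array left out, with a fall of 0.44 without Ad-GFP replicate 1 (adjusted p = 0.0468) and of 0.52 without Ad-nuclear CREBH replicate 1 (adjusted p = 0.0155). Ccne1, the E-type cyclin that activates Cdk2, was at 9.01, 9.20 and 9.54 with Ad-GFP and 10.04, 9.22 and 9.03 with Ad-nuclear CREBH, with Ad-nuclear CREBH replicate 1 above and the others within the control range (log2 fold change 0.18, SE 0.26, adjusted p = 0.645). Of the activating E2F factors, E2f2 was at 4.89, 5.40 and 5.80 with Ad-GFP and 7.13, 6.77 and 6.74 with Ad-nuclear CREBH, without overlap, and rose 2.87-fold (log2 fold change 1.52, SE 0.24, adjusted p = 0.00161), whereas E2f1 did not pass (log2 fold change -0.35, SE 0.27, adjusted p = 0.351).

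**Figure D5:**
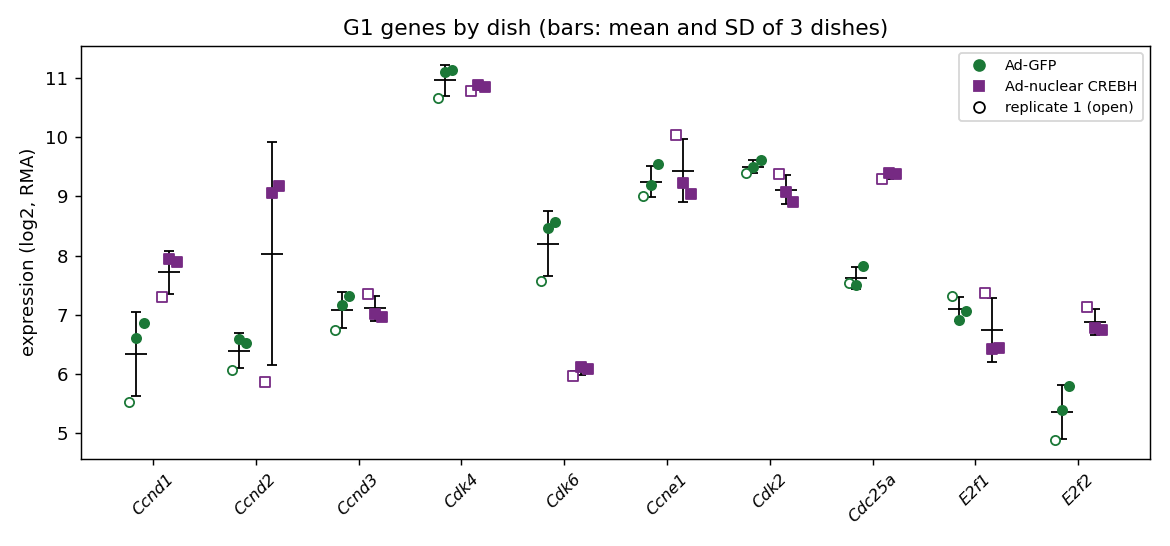
Log2 expression (y axis) of the 10 measured G1 genes (x axis) in each dish, with circles for Ad-GFP, squares for Ad-nuclear CREBH, open symbols for replicate 1 and bars for the mean and SD of 3 dishes. Ccnd1, Cdc25a and E2f2 lie above and Cdk6 and Cdk2 below the controls in all 3 CREBH dishes, and the CREBH dishes of Ccnd2 are split.

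Of the 10 G1 genes, 3 lay wholly above the controls (26.2% of all genes did) and 2 wholly below (23.1%). Leaving out replicate 1 of Ad-GFP gave 3 that fell and leaving out replicate 1 of Ad-nuclear CREBH also gave 3, and the median log2 fold change was then -0.04 and -0.10. Under criteria taken from the study, a p under 0.001, a fold change over 2 or under 0.5 and a linear level over 300, Cdc25a and Mcm2 were the only list members to pass upward and 0 passed downward. Of all genes 4.91% passed upward and 3.1% downward. The level was required in at least 1 group, a choice made here, as the methods leave that open. The highest group mean among the G2/M genes that fell, 7.88 for Ccna2 with Ad-GFP, was under the level criterion.

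Other cell cycle genes, grouped by function and not on the list of 53, were read from the same fit. The shares over all genes were 19.2% risen and 18.2% fallen, and the median of all genes was 0.039. Of 10 CDK inhibitors and pocket proteins 2 rose and 4 fell, with a median log2 fold change of -0.20. Cdkn2c, an INK4 inhibitor of Cdk4 and Cdk6, was at 5.76, 5.76 and 6.66 with Ad-GFP and 9.42, 9.16 and 9.01 with Ad-nuclear CREBH, a rise of 8.8-fold (log2 fold change 3.14, SE 0.26, adjusted p = 5.64e-05). Its relative Cdkn2b fell (-1.53, adjusted p = 0.00025). Cdkn1a, the CDK inhibitor induced by p53, rose slightly from a high level (0.47, adjusted p = 0.00591), while Cdkn1b (-0.80, adjusted p = 0.0107) and the retinoblastoma gene Rb1 (-0.83, adjusted p = 0.00446) fell. Of 11 other E2F, DP and MuvB genes 0 rose and 3 fell (median -0.21), namely Tfdp2 (-1.51), a dimer partner of E2F, the repressor E2f6 (-1.11) and the MuvB subunit Lin37 (-0.55).

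Of 16 genes of origin recognition and firing outside the list 5 rose and 6 fell (median -0.29), where 19.2% and 18.2% of all genes did. Cdc7, the kinase that fires licensed origins, was at 5.63, 5.48 and 6.07 with Ad-GFP and 8.19, 7.83 and 7.91 with Ad-nuclear CREBH, without overlap (log2 fold change 2.25, SE 0.19, adjusted p = 7.04e-05). Mcm8 (1.55, adjusted p = 0.00124), a helicase gene related to the MCM subunits, and Gins3 (1.29, adjusted p = 0.000632) rose too, whereas Gins1 (-1.40, adjusted p = 0.000258), which encodes another subunit of the same GINS complex, and the firing factors Ticrr (-1.38, adjusted p = 0.000457) and Topbp1 (-1.30, adjusted p = 0.00137) fell. Of 21 genes of fork polymerases and clamp loading 1 rose and 12 fell (median -0.74). The gene that rose was Fen1 (1.21, adjusted p = 0.00087), the nuclease that trims Okazaki fragments. The falls were led by Dut (-1.78, adjusted p = 0.000216), which keeps uracil out of DNA, and by the polymerase catalytic subunits Pole (-1.72, adjusted p = 0.00111) and Pold1 (-1.50, adjusted p = 0.0002).

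Genes of chromosome segregation outside the list mostly fell. Of 24 genes of cohesin, condensin and the kinetochore 0 rose and 18 fell (median -0.97). Among them were Nuf2 of the outer kinetochore (-2.10, adjusted p = 0.00389), the checkpoint gene Mad2l1 (-1.97, adjusted p = 0.000196) and the condensin subunit Smc4 (-1.74, adjusted p = 8.77e-05), and the brightest that did not pass was the cohesin subunit Rad21 (-0.32, adjusted p = 0.0522). Of 14 checkpoint and mitotic entry kinases and cofactors 2 rose and 6 fell (median -0.41), against 19.2% and 18.2% of all genes. Bora, which helps aurora A to activate Plk1, was at 5.83, 5.15 and 6.02 with Ad-GFP and 8.86, 8.90 and 8.82 with Ad-nuclear CREBH, a rise of 9.12-fold (log2 fold change 3.19, SE 0.22, adjusted p = 3.25e-05), and the damage kinase Atr rose as well (1.05, adjusted p = 0.0012). Plk2 (-2.82, adjusted p = 1.79e-05), Mastl (-2.69, adjusted p = 7.52e-05), whose product keeps the mitotic phosphatase off, and Chek2 (-1.90, adjusted p = 5.87e-05) fell. Of 22 genes of the APC/C and SCF ubiquitin ligases 5 rose and 11 fell (median -0.39), beside the same 19.2% and 18.2%. Skp2, which targets the inhibitor encoded by Cdkn1b, rose (1.33, adjusted p = 0.00827), as did the subunits Anapc7 (1.53, adjusted p = 3.25e-05) and Cdc27 (0.61, adjusted p = 0.00286), whereas the APC/C inhibitor Fbxo5 (-1.94, adjusted p = 0.00567) and the small CDK-binding proteins Cks1b (-1.91, adjusted p = 3.74e-05) and Cks2 (-1.43, adjusted p = 0.000193) fell. Of 18 transcriptional or quiescence cyclins, their kinases and antiproliferative genes 3 rose and 4 fell (median -0.20), close to the 19.2% and 18.2% of all genes, with Gas1 (2.15, adjusted p = 9.43e-05) the largest rise and the stress gene Gadd45a (-2.77, adjusted p = 2.20e-05) the largest fall.

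A few genes had more than 1 feature. Both Pcna features gave the same value within 0.01 (log2 fold changes -0.14 and -0.15). For Gmnn, Kif11, Prc1 and Top2a the dimmer features, at means of 2.30 to 3.10, did not pass, with log2 fold changes from -0.46 to -0.11, against -0.90 to -2.14 for the brighter ones. Further features that paired Ccnd1 or Cdc25b with another symbol were not used.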

How the data were processed

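Total RNA from 6 dishes was hybridized to Affymetrix Mouse Gene ST arrays. The authors deposited log2 values made with RMA, which corrects background, normalizes between arrays and summarizes probes, per the submitters' processing notes (no version is given there, and the log base was read from the range of 1.17 to 13.7). The sample labels and the study's methods name different RNA extraction kits. Values were used as deposited. Of 35556 features, 21218 carried 1 gene symbol, 1881 several and 12457 none. The first kind was used, with the highest-mean feature for 1386 genes with several, leaving 18820 genes. RMA gives no background flag, and fold changes of dim genes may be understated. The precision of each gene rests on the number of arrays, the spread among dishes and the variance prior.

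Groups came from the sample labels. Linear models were fitted with limma 3.58.1 in R 4.3.3 (intensity trend, no covariate, 4 residual and 3.97 prior degrees of freedom) and checked on simulated data, with Benjamini-Hochberg adjustment over all genes. The phase of each gene, the gene and marker lists and the pairs compared were chosen with earlier results of these data known. Values per dish are given for Creb3l3, for Ccnd2 and Cenpa, and in each phase for up to 8 called genes with the largest changes and the 3 brightest that did not pass. In each other list up to 3 rises and 3 falls are named, with values per dish for Cdkn2c, Cdc7 and Bora. Of the brightest genes of those lists that did not pass, only Rad21 is named. Of the markers, those called and some of the brightest are named. Further genes are named by role. Alternatives covered the variance prior, an intensity-based moderated statistic written out here after the kind the methods name, array weights, a replicate block, 3 normalizations, all features per gene, a level filter, the methods' criteria, the phase of Ccna2, Mybl2 and E2f8, and leaving out each array. Figures were drawn with matplotlib 3.10.9.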

Additional observations from a re-analysis of the deposited data

How the results depend on the processing

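Every called gene kept its sign in every fit (60 of 60 for G1, 149 of 149 for S and 238 of 238 for G2/M). The median of the G2/M genes stayed between -1.83 and -1.28, and no G2/M gene rose in any fit. The smaller groups moved more. The number of G1 genes that fell was 4 with array weights and 4 without replicate 1 of both groups, 2 after quantile normalization, 2 after cyclic loess, 2 among genes at or above the median level, and 1 to 3 with 1 array left out. The G1 median was -0.16 with array weights, -0.25 without replicate 1 of both groups and -0.10 to 0.24 with 1 array left out. With each array centred on its median, which moved the median of all genes from 0.039 to 0.18 (4814 rose, 2852 fell), 5 S genes rose and 4 fell. With 1 array left out, 1 to 4 S genes rose and 2 to 8 fell, and their median was -0.40 to 0.0043. With Ccna2 and Mybl2 placed in S and E2f8 in G1, 3 S genes rose and 8 fell, around a median of -0.32. The G1 median was then 0.18, and 15 G2/M genes fell. Placing the licensing genes in G1 was not tried. The methods' criteria left 1 G1 and 1 S gene risen and 0 G1, 0 S and 0 G2/M genes fallen. These criteria change the p, the fold and the level at once. The causes of the shifts were not tested.

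Among genes that did not pass, signs were compared only for the 3 brightest of each phase. Of these, the sign changed for Cdk4 (0.015 centred), Ccne1 (-0.13 with array weights, -0.24 without replicate 1 of both groups, -0.12 to 0.38 with 1 array left out), Pcna (-0.40 to 0.0043 with 1 left out), Mcm6 (0.074 centred, -0.24 to 0.023 with 1 left out), Cdk1 (-0.14 with array weights, -0.26 without replicate 1 of both groups, -0.037 to 0.48 with 1 left out) and Mybl2 (0.058 centred, 0.062 after quantile normalization, 0.084 after cyclic loess, -0.40 to 0.11 with 1 left out).

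The labels number the dishes alike in both groups, but same-numbered dishes deviated together only in part (correlations 0.178, 0.073 and 0.139), and Ad-GFP replicate 2 was closest to Ad-nuclear CREBH replicate 3 (0.080). With the replicate block, 3715 genes rose and 3705 fell, and of the list members only Rrm1 lost its call (adjusted p = 0.07 from limma).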
